A study of Homo sapiens with 12 samples.

Results

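This is an account of ursodeoxycholic acid against mock control in cells labelled HepG2, the name of a human hepatoma line. It rests on 6 of the series' 12 one-colour arrays, chosen by title: 3 arrays of cells given 25 µM ursodeoxycholic acid (Urso replicates 1 to 3) and 3 arrays of mock-treated cells (Mock replicates 1 to 3), whose labels give the agent as Ctrl. The other 6 arrays came from cells given 25 µM glycyrrhizin (Gly) or 25 µM silymarin (Sil), and are used for the spread between arrays and for the comparisons at the end. All 4 groups grew in DMEM with fetal bovine serum, and the treatment time is not given in the sources used here. No label tells whether a group's arrays hold RNA of separate cultures, and p-values therefore reflect array-to-array spread that may be technical only. According to the series' title and design text, the question was how agents taken to protect the liver alter gene expression in hepatoma cells.

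Bile acids are made from cholesterol in hepatocytes. In the classic pathway CYP7A1 catalyses the first and rate-limiting step and CYP8B1 sets the share of cholic acid, while CYP27A1 and CYP7B1 act in the alternative pathway. Bile acids return to hepatocytes through the uptake carrier SLC10A1 (NTCP), leave them through ABCB11, and signal through the nuclear receptor NR1H4 (FXR) and the membrane receptor GPBAR1 (TGR5). FXR induces the corepressor NR0B2 (SHP) and the hormone FGF19, which lower CYP7A1. Ursodeoxycholic acid is a hydrophilic bile acid used as a drug in cholestatic liver disease, and is known as a weak activator of FXR.

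Of the 27561 probes on the arrays, 15650 named 1 gene, and each of the 13881 genes so named was read by its brightest probe. Genes with a mean log2 intensity over 8 are called bright here (3904 genes, 28.1%) and the other 9977 dim. At that limit, TAF5L lay just under it at a mean of 7.9997 and DNPH1 just over it at 8.0001. The files hold no detection calls, so a dim value could not be told from background. Urso replicate 1 stood apart: across all probes its median correlation with the other 11 arrays was 0.9082, the lowest of the 12, against 0.9363 for Urso replicate 2 and 0.933 for Urso replicate 3, and 0.922 to 0.9362 for the Mock arrays. It was the Urso array farthest from the group's median for 39.9% of bright genes, where Urso replicate 2 was for 27.3% and Urso replicate 3 for 32.8%. The markers fixed for hepatocytes did not bear out the label: 0 of 21 measured markers were bright, and the brightest, transthyretin TTR, averaged 7.77. By contrast 12 of 19 measured markers of neuroblasts were bright, led by tyrosine hydroxylase TH at 12.5. Markers of other cell types were bright too, in 4 of 7 for leukocytes, 3 of 7 for endothelium and 5 of 12 for mesenchyme. Of cholangiocyte and epithelial markers 0 of 8 were bright. Which cell type the arrays hold was not tested. ALB and HNF4A had no named probe among those used here. The samples are therefore called cells labelled HepG2 throughout.

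No gene passed the test of ursodeoxycholic acid against mock treatment at an adjusted p under 0.05 in limma (0 of 13881 genes, 0%), while 734 genes (5.29%) had an unadjusted p under 0.05. The bright genes with the smallest p were measured lower with ursodeoxycholic acid: MIEN1, a lipid-anchored membrane protein that promotes migration, CLCN2, a voltage-gated chloride channel, SYNE2, a nesprin of the nuclear envelope, CYP1A2, a cytochrome P450 that oxidizes caffeine and aromatic amines, and OAF. Their Urso means lay 1.99-fold to 3-fold below the Mock means. When the bright genes were fitted and adjusted alone, these 5 genes passed and all 5 were lower (0.128% of 3904 genes). A variance trend over all genes called the same 5 genes and GINS4, described below (0.0432%). Without Urso replicate 1 the fit on bright genes alone called 4 genes, with CYP1A2 missing at an adjusted p of 0.0546. MIEN1 and CLCN2 were called in that fit whichever of the 6 arrays was left out. They were the 2 genes called without Urso replicate 2 or without any 1 Mock array, and 25 genes were called without Urso replicate 3. In RNA from a whole culture, fewer cells of a kind and less RNA per cell cannot be told apart.

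MIEN1 had log2 intensities of 10.75, 10.53 and 10.93 on the Urso arrays, against 12.04, 12.02 and 12.02 on the Mock arrays. All 3 Urso arrays lay more than 1 log2 unit below every Mock array. The log2 difference was -1.29 (SE 0.18, 2.45-fold lower) with an adjusted p of 0.0738 over all genes, and 0.00117 among bright genes alone. CLCN2 read 10.22, 9.89 and 10.2 with ursodeoxycholic acid, against 11.38, 11.42 and 11.37 with mock treatment. The groups were again wide apart and the Mock arrays close together. Its difference was -1.29 (SE 0.18, 2.44-fold lower), with an adjusted p of 0.0738 over all genes and 0.00117 among bright genes. SYNE2 had 10.1, 9.45 and 9.65 on the Urso arrays and 11.22, 11.2 and 11.53 on the Mock arrays. Here Urso replicate 1 was the Urso array nearest to Mock, and the difference of -1.58 (SE 0.25, adjusted p 0.155 over all genes, 0.0142 among bright genes) became -1.77 without it. CYP1A2 stood at 10.26, 9.9 and 10.34 with ursodeoxycholic acid, against 11.35, 11.39 and 11.2 with mock treatment, a difference of -1.14 (SE 0.21, adjusted p 0.237 over all genes, 0.0218 among bright genes). For OAF the Urso arrays read 11.39, 10.96 and 11.15 and the Mock arrays 12.15, 12.16 and 12.18, a difference of -1 (SE 0.2, adjusted p 0.322 over all genes, 0.0253 among bright genes). In each of the 5 genes no Urso array overlapped the Mock arrays, as was so in 9.58% of bright genes, and each of the 5 is read by 1 probe. The Gly arrays differed from Mock by -1.545 for MIEN1, -1.34 for CLCN2, -1.46 for SYNE2, -1.33 for CYP1A2 and -0.94 for OAF. For the Sil arrays these differences were 0.05, 0.07, -0.79, -0.04 and -0.12.

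**Figure D1:**
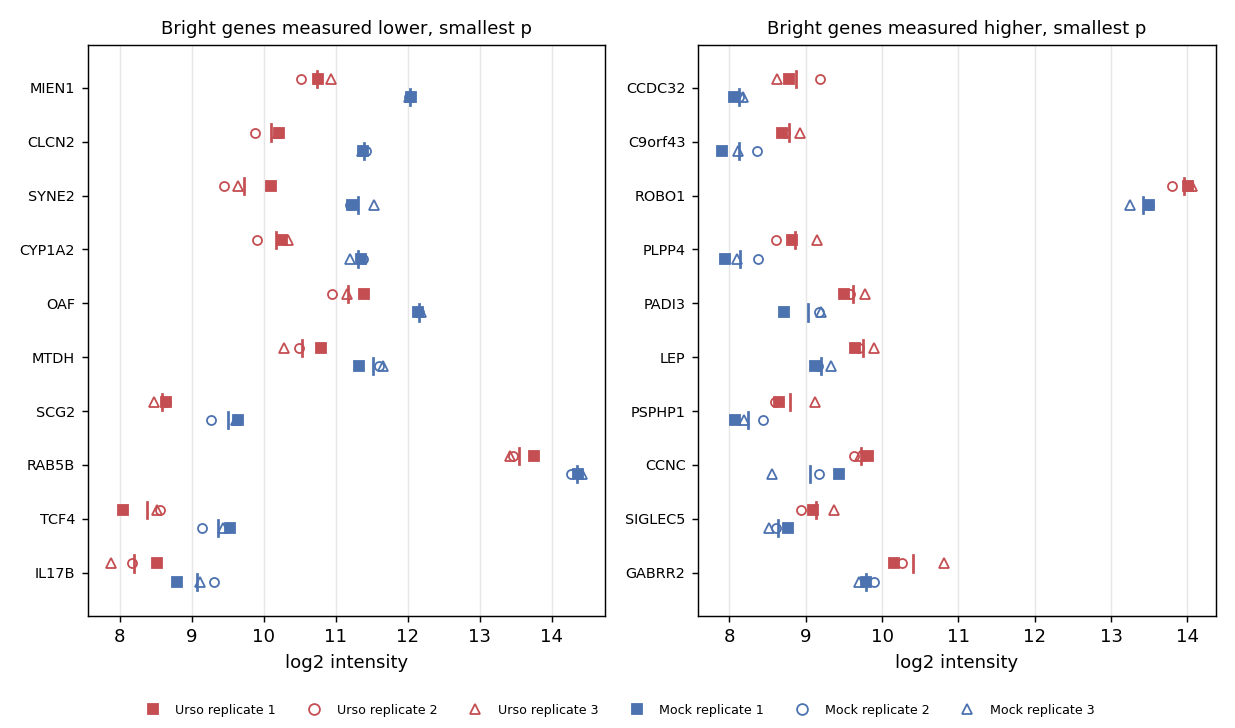
Log2 intensity (x axis) of the 10 bright genes with the smallest p measured lower (left) and higher (right) with ursodeoxycholic acid. Red symbols are the 3 Urso arrays and blue symbols the 3 Mock arrays, filled squares are replicate 1, and vertical ticks are group means. For MIEN1 the Urso arrays sit at 10.75, 10.53 and 10.93 and the Mock arrays at 12.04, 12.02 and 12.02, while on the right no pair of group means is further apart than the 0.75 of CCDC32.

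The promoters of these genes are shown because the genes were measured lower together. RefSeq (GRCh38.p14) gave a window from 250 bases before to 50 after the start for 4 of the 5 genes. MIEN1 lies at chr17:39730483-39730782 (minus strand), CLCN2 at chr3:184361556-184361855 (minus), SYNE2 at its first of 3 listed starts at chr14:63852754-63853053 (plus) and CYP1A2 at chr15:74748595-74748894 (plus). The promoter of OAF was not used here. Each sequence runs 5′ to 3′ on the gene's strand, and capitals mark the GC box GGGCGG read on either strand.
MIEN1: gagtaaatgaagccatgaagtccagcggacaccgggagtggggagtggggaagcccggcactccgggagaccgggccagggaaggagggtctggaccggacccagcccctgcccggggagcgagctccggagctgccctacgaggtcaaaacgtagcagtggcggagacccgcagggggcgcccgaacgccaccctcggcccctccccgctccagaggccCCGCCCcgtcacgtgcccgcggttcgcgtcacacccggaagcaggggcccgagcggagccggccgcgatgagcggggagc
CLCN2: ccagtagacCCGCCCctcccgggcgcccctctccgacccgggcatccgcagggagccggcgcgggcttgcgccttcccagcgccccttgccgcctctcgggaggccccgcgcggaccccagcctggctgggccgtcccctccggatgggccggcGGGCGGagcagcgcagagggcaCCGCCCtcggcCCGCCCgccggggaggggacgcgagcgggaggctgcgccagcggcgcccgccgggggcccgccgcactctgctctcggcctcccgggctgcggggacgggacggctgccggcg
SYNE2: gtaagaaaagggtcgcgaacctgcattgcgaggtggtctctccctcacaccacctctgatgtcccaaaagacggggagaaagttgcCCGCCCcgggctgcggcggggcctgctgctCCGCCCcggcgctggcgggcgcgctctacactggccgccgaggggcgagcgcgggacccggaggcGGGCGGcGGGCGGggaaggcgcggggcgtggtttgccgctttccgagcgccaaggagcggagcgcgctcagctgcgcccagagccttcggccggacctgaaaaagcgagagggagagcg
CYP1A2: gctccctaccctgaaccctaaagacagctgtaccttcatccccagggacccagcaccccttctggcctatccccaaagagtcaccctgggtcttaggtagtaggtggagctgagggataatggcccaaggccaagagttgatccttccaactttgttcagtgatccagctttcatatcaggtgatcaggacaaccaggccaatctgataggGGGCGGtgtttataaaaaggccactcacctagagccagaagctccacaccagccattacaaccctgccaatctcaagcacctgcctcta
The GC box occurred 1 time in the MIEN1 window, 4 times in that of CLCN2, 4 times in that of the first SYNE2 start and 1 time in that of CYP1A2. Among all 35116 promoter windows of the same length, 45% hold it on either strand (15786 windows). GCGTG, the core bound by the aryl hydrocarbon receptor, was found on either strand in the SYNE2 window and in 36.5% of all windows. AGGTCA, the element recognized by many nuclear receptors, was found in the MIEN1 window and in 13.8% of all windows. CCAAT was found 2 times in the CYP1A2 window and in 34.6% of all windows. At the second SYNE2 start the window held 0 GC boxes, 0 GCGTG and 1 CCAAT, and at the third 1, 0 and 0. G and C made up 73% of the MIEN1 window, 82.7% of that of CLCN2, 71.7% of that shown for SYNE2 and 53% of that of CYP1A2. The share of windows of like composition with a GC box was not counted. These matches describe letters and show no binding.

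The next bright genes on the lower side were MTDH, a membrane-associated cancer gene product also called astrocyte elevated gene 1, the secretory granule protein SCG2, the endosomal GTPase RAB5B, the transcription factor TCF4 and the cytokine IL17B. MTDH read 10.8, 10.49 and 10.29 on the Urso arrays, against 11.32, 11.6 and 11.65 on the Mock arrays, 2-fold lower (-1, SE 0.25). SCG2 was measured lower by 0.92, RAB5B by 0.81, TCF4 by 0.99 and IL17B by 0.88 log2 units. RAB5B, with Urso arrays at 13.75, 13.46 and 13.42 and Mock arrays at 14.36, 14.27 and 14.41, is the brightest of the 10. The adjusted p-values of these 5 genes ran from 0.637 to 0.712, so none passed. The Gly arrays differed from Mock by -0.92 for MTDH, -0.79 for SCG2, -0.91 for RAB5B, -1.14 for TCF4 and -0.79 for IL17B. For the Sil arrays these differences were -0.15, -0.03, -0.02, 0.17 and -0.78. Every Urso array lay below every Mock array in these 5 genes, as was so in 4.61% of bright genes. The choice by p favours such genes, so this is no further evidence.

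Bright genes measured higher showed smaller differences. CCDC32, a gene of clathrin-mediated endocytosis, read 8.78, 9.19 and 8.63 on the Urso arrays, against 8.06, 8.13 and 8.17 on the Mock arrays, 1.68-fold higher (0.75, SE 0.2, adjusted p 0.712). The 3 Urso arrays lay above the 3 Mock arrays, as was so in 4.97% of bright genes. C9orf43 followed at 0.66 and ROBO1, a guidance receptor, at 0.54 (Urso 14, 13.79 and 14.06, Mock 13.5, 13.5 and 13.25). PLPP4, a lipid phosphatase, differed by 0.72, PADI3, a peptidylarginine deiminase, by 0.59, and LEP, the gene of leptin, by 0.54. The pseudogene PSPHP1 (0.55), the cyclin CCNC (0.66), the sialic acid receptor SIGLEC5 (0.5) and the GABA receptor subunit GABRR2 (0.61) complete the 10. PSPHP1 shares sequence with the gene PSPH, and which of them its probe reads is uncertain. None of the 10 passed, with adjusted p-values from 0.712 to 0.925. Without Urso replicate 1 their differences lay between 0.51 and 0.79.

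Over all bright genes 132 (3.38%) had an unadjusted p under 0.05, 47 (1.2%) higher and 85 (2.18%) lower with ursodeoxycholic acid. By chance 195 bright genes would reach it. With bright genes fitted alone 260 did, 111 higher and 149 lower, so these counts depend on the fit. Of the 26 bright genes whose means differed by more than 1 log2 unit (2-fold), 2 (0.0512%) were higher and 24 (0.615%) lower, and 9 of the 26 still did so without Urso replicate 1. The 3 Urso arrays lay above all Mock arrays in 194 bright genes (4.97%) and below them in 180 (4.61%). With Urso replicates 2 and 3 alone these were 376 (9.63%) and 621 (15.9%) bright genes, beside 9.61% and 11.7% of all genes. Fewer arrays make overlap rarer, so these counts cannot be set against those from 3 Urso arrays. Of the bright genes at an unadjusted p under 0.05, the list found without Urso replicate 1 held 36 higher and 112 lower genes. The lists with and without that array had 67 lower genes in common, 78.8% of the first list and 59.8% of the second. On the higher side they had 18 genes in common, 38.3% of the list from all arrays and 50% of the list without that array. The sign of the difference changed without Urso replicate 1 in 14.8% of bright and 17.3% of dim genes. It changed in 0 of the 734 genes at an unadjusted p under 0.05. Those genes were chosen by p on all arrays, that one included, so this count is no check on them. The median 95% interval reached 0.517 log2 units (1.43-fold) to either side in bright genes and 0.861 (1.82-fold) in dim genes.

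**Figure D2:**
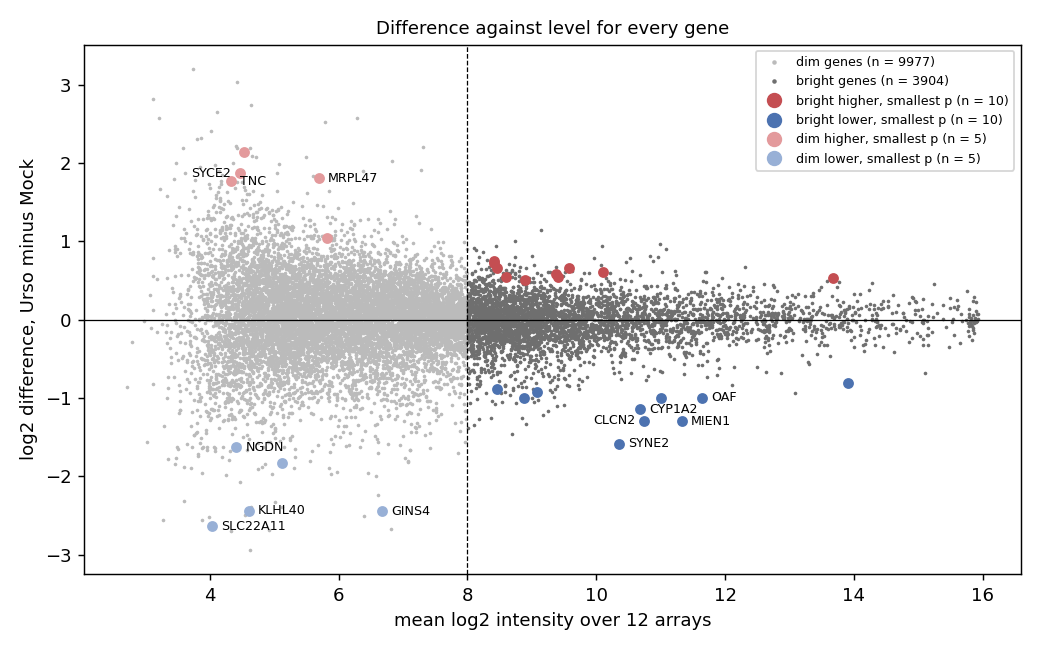
Log2 difference of Urso minus Mock (y axis) against mean log2 intensity over the 12 arrays (x axis) for all 13881 genes, with the limit of 8 between dim (light grey, n = 9977) and bright (dark grey, n = 3904) genes dashed. Coloured points are the genes named by their p in each direction. Differences spread more widely among dim genes, and SYNE2, MIEN1 and CLCN2 lie under most bright genes of like intensity.

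Dim genes had larger differences and wider intervals. The smallest p of all genes belonged to KLHL40, a stabilizer of muscle thin filaments, with 2.17, 3.18 and 3.53 on the Urso arrays and 5.25, 5.55 and 5.41 on the Mock arrays. The Urso arrays were all lower and Urso replicate 1 was the lowest, so that the difference of -2.44 (SE 0.31, adjusted p 0.0738) was -2.04 without it. SLC22A11, a renal and placental carrier of organic anions and urate, read 2.17, 1.46 and 2.42 with ursodeoxycholic acid, against 4.01, 4.54 and 5.41 with mock treatment (-2.64, SE 0.37, adjusted p 0.0738). GINS4, a subunit of the replicative helicase complex, had 5.4, 5.5 and 5.29 on the Urso arrays and 7.6, 7.8 and 8.12 on the Mock arrays (-2.44, SE 0.39, adjusted p 0.155). Its Mock arrays lay close to the limit between dim and bright genes, and the groups were far from overlapping. NGDN, a factor of ribosome assembly, differed by -1.62 and CHRDL1, a bone morphogenetic protein antagonist, by -1.83. On the higher side stood SYCE2 (Urso 5.01, 5.15 and 4.53, Mock 2.42, 3.48 and 3.17), a synaptonemal complex gene, TNC (Urso 5.45, 4.98 and 4.53, Mock 3.36, 3.13 and 3.17), the matrix protein tenascin C, MRPL47 (1.8), UBE2N (2.15), a ubiquitin-conjugating enzyme, and AMMECR1L (1.04). None of these 10 passed. Against Mock, the Gly and Sil arrays differed by -2.27 and -1.9 for CHRDL1, 1.72 and 2.19 for SYCE2, and 2.1 and 1.47 for UBE2N. The same pairs were 0.96 and 1.68 for TNC, -1.85 and -0.39 for GINS4, and 0.65 and 0.9 for MRPL47. For AMMECR1L they were 0.45 and 0.64, and for NGDN -0.49 and -0.05. For KLHL40 they were -0.47 and -0.27, and for SLC22A11 -0.11 and 0.29. Over all dim genes 319 (3.2%) were higher and 283 (2.84%) lower at an unadjusted p under 0.05. Differences over 1 log2 unit were as even, with 324 dim genes (3.25%) higher and 342 (3.43%) lower. The 3 Urso arrays lay above all Mock arrays in 543 dim genes (5.44%) and below them in 405 (4.06%), together 948 (9.5%).

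No gene of bile acid synthesis passed the test. Of 16 measured genes 5 were measured higher and 11 lower with ursodeoxycholic acid, with a median difference of -0.11 (-0.08 without Urso replicate 1), beside 0.02 and 52.3% higher over all genes. CYP7A1 was dim, at 4.73, 5.83 and 6.11 on the Urso arrays and 5.54, 5.58 and 5.83 on the Mock arrays, and differed by -0.09 (95% interval -0.87 to 0.69). Urso replicate 1 lay below every Mock array and Urso replicate 3 above every one, and the difference was 0.32 without Urso replicate 1. CYP8B1, the sterol 12-alpha-hydroxylase, read 8.85, 8.62 and 9.01 with ursodeoxycholic acid, against 8.47, 8.86 and 8.12 with mock treatment (0.34, interval -0.28 to 0.97). CYP27A1 was among the brightest of the list at 9.72, 9.47 and 10.62 on the Urso arrays and 10.32, 10.12 and 10.77 on the Mock arrays, and the groups overlapped (-0.46, interval -1.24 to 0.31). CYP7B1, the oxysterol 7-alpha-hydroxylase, was the 1 member at an unadjusted p under 0.05, which 2.64% of all genes reached on the higher and 2.65% on the lower side. It had 3.37, 4.3 and 3.42 on the Urso arrays and 4.78, 4.24 and 4.38 on the Mock arrays (-0.77, adjusted p 0.925). Its Urso replicate 2 lay inside the Mock range, and its differences with 1 array left out ran from -1.07 to -0.61. HSD3B7, which acts after the hydroxylases, had one of the widest spreads among Mock arrays (9.98, 10.36 and 10.54 with ursodeoxycholic acid, against 10.91, 8.89 and 9.51 with mock treatment). The cholesterol 24-hydroxylase CYP46A1 differed by 0.37, and among the conjugating and activating enzymes BAAT differed by -0.16 and SLC27A5 by 0.55. In 0 of the 16 did the 3 Urso arrays lie wholly above or below the Mock arrays, as they did in 5.31% (above) and 4.21% (below) of all genes, 9.52% in all.

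Bile acid transport genes divided evenly, 7 of 14 measured higher and 7 lower, with a median of -0.02, or 0.09 without Urso replicate 1. The uptake carrier SLC10A1 was dim but apart in the groups, at 4.73, 4.86 and 5.32 on the Urso arrays and 4.33, 4.24 and 4.14 on the Mock arrays (0.74, SE 0.29, adjusted p 0.925). It was the 1 member of the list at an unadjusted p under 0.05. ABCC2, the canalicular export pump MRP2, read 8.98, 8.89 and 9.01 with ursodeoxycholic acid, against 7.82, 8.52 and 8.95 with mock treatment (0.53, interval -0.07 to 1.13), the Mock arrays being the more scattered. ABCB11, the bile salt export pump, lay at 7.24, 7.12 and 6.92 on the Urso arrays and 7.25, 6.97 and 6.97 on the Mock arrays (0.03, interval -0.71 to 0.78). The basolateral exporters ABCC3 and ABCC4 differed by -0.16 and 0.07. ABCC4 stood at 4.3, 6.81 and 6.39 on the Urso arrays, with replicate 1 far under the others, and the sign of both differences turned when single Urso arrays were left out. The phospholipid floppase ABCB4 differed by -0.45, the uptake carrier SLCO1B1 by -0.57 and the bile acid sulfotransferase SULT2A1 by 1.06, each with overlapping groups or an interval across 0. UGT2B4, a glucuronosyltransferase of bile acids, had all 3 Urso arrays under the Mock arrays (6.03, 6.13 and 5.97 with ursodeoxycholic acid, against 6.28, 6.32 and 6.54 with mock treatment), and differed by -0.34 (interval -0.84 to 0.16). The Urso arrays lay wholly above Mock in 1 of the 14 and wholly below in 1, beside 5.31% and 4.21% of all genes.

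Among receptors and their partners 7 of 14 measured genes were higher and 7 lower, with a median of 0.05 (0.04 without Urso replicate 1). GPBAR1 was the 1 member at an unadjusted p under 0.05, measured 1.99-fold higher at 6.99, 7.25 and 6.8 on the Urso arrays and 6.48, 6.32 and 5.24 on the Mock arrays. The lowest Urso array exceeded the highest Mock array, but Mock replicate 3 was low, and the difference of 1 (SE 0.31, adjusted p 0.821) was 0.61 without it. NR1H4 read 4.85, 5.15 and 5.18 with ursodeoxycholic acid, against 4.86, 5.83 and 6.32 with mock treatment (-0.61, interval -1.63 to 0.4). NR0B2, the corepressor that FXR induces, was bright at 9.48, 9.61 and 9.7 on the Urso arrays and 9.18, 9.27 and 9.6 on the Mock arrays, and differed by 0.25 (interval -0.21 to 0.7). FGF19 differed by 0.48 (interval -0.33 to 1.28) and its receptor FGFR4 by 0.26 (interval -0.17 to 0.69), with the coreceptor KLB at -0.16. FGFR4 had all 3 Urso arrays above the Mock arrays, and NR1I3, the constitutive androstane receptor, had all 3 below them (-0.39, interval -0.95 to 0.17). The Urso arrays lay wholly above Mock in 2 of the 14 and wholly below in 1, beside 5.31% and 4.21% of all genes. The oxysterol receptors NR1H3 and NR1H2 differed by -0.53 and 0.58, and S1PR2, a receptor for sphingosine phosphate and conjugated bile acids, by -0.23. None passed, and NR0B2, FGFR4 and S1PR2, the bright members, had intervals that excluded a 2-fold difference in either direction.

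**Figure D3:**
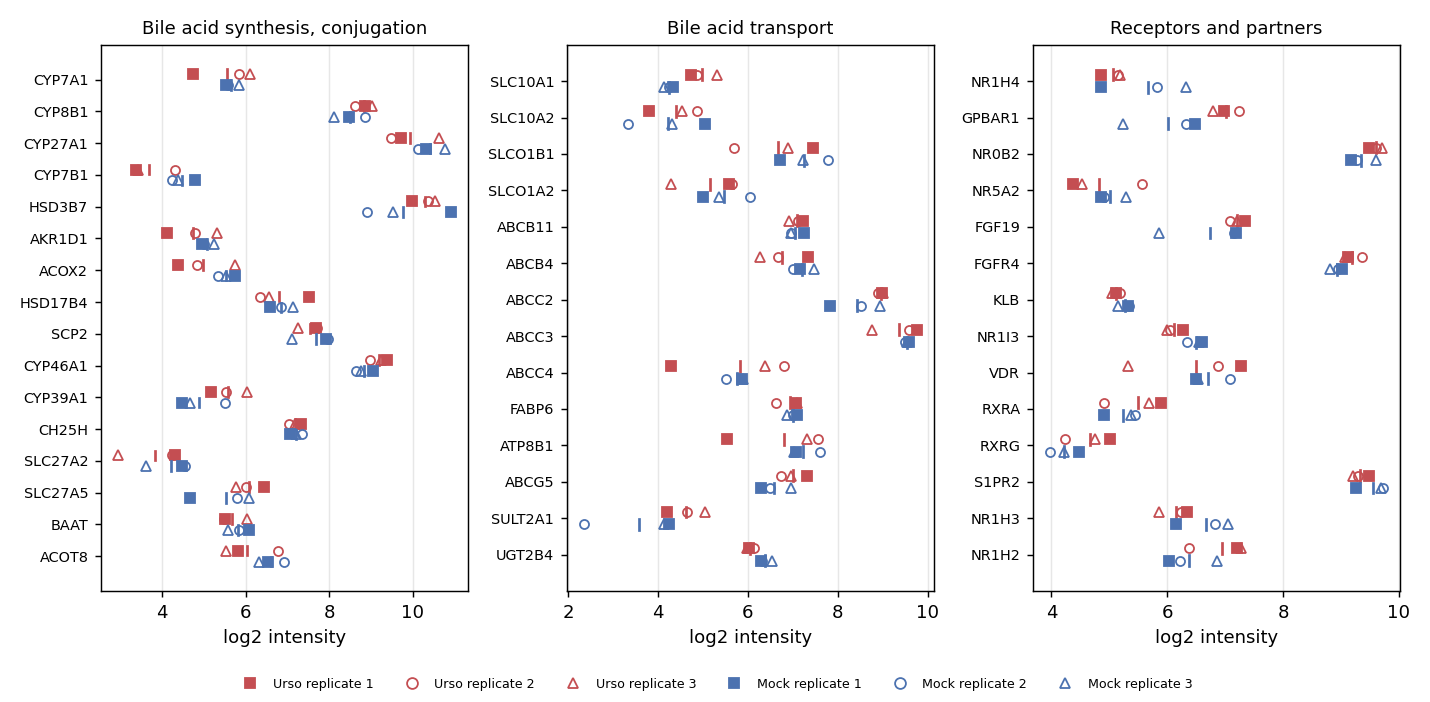
Log2 intensity (x axis) of every measured gene of bile acid synthesis and conjugation, transport, and receptors with their partners. Red symbols are Urso arrays, blue symbols Mock arrays, filled squares replicate 1, and vertical ticks group means. Most groups overlap, while GPBAR1, SLC10A1 and FGFR4 have all 3 Urso arrays above the Mock arrays, and UGT2B4 and NR1I3 have all 3 below them.

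Cholesterol synthesis genes were measured lower in 12 of 18, with a median of -0.08 (-0.07 without Urso replicate 1). FDFT1, squalene synthase, read 6.34, 6.02 and 6.04 on the Urso arrays, against 7.16, 7.48 and 7.81 on the Mock arrays, with all Urso arrays lower (-1.34, SE 0.28, adjusted p 0.398). SC5D, the lathosterol desaturase, had 2.17, 4.9 and 2.03 with ursodeoxycholic acid and 4.25, 5.67 and 5.41 with mock treatment, and overlapped through Urso replicate 2. NSDHL, a sterol dehydrogenase, differed by -0.52. The bright enzymes SQLE (0.15), MVD (-0.08), MVK (0.01) and CYP51A1 (0.03) had intervals within 2-fold of no difference, as had the sterol sensor SCAP (-0.19) and the transcription factor it escorts, SREBF2 (0). INSIG1, which retains SCAP in the endoplasmic reticulum, differed by 1.41, with Mock replicate 1 at 1.97 beside 5.8 and 5.01 in the other Mock arrays. None of the 18 passed, and 2 had an unadjusted p under 0.05, both lower. The Urso arrays lay wholly below Mock in 2 of the 18 and wholly above in 0, beside 4.21% and 5.31% of all genes.

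For fatty acid synthesis 10 of 16 genes were measured higher (median 0.15, and 0.05 without Urso replicate 1). ACLY, ATP citrate lyase, read 11.37, 11.14 and 11.19 on the Urso arrays, against 10.74, 10.81 and 10.95 on the Mock arrays (0.4), and AGPAT2, of phosphatidic acid synthesis, 11.83, 11.87 and 12.04 on the Urso arrays, against 11.41, 11.6 and 11.65 on the Mock arrays (0.36). In both genes every Urso array exceeded every Mock array, as was so in 4 of the 16 and in 5.31% of all genes. The choice by p favours such genes, and both had an adjusted p of 0.925. DGAT1, of triglyceride synthesis, differed by 0.49, and FADS2 was high on Urso replicate 1 alone. Fatty acid oxidation genes were higher in 7 of 17 (median -0.02, and -0.07 without Urso replicate 1), with CPT1A, the carnitine palmitoyltransferase, at 0.3 and its regulator PPARA at -0.29. Apolipoprotein and lipoprotein genes were higher in 13 of 15, with a median of 0.19 that was 0.31 without Urso replicate 1. The 3 Urso arrays were wholly above Mock in 2 of the 15, beside 5.31% of all genes. SCARB1, the receptor for high-density lipoprotein, read 8.06, 8.01 and 10.72 with ursodeoxycholic acid, against 7.14, 7.77 and 8.1 with mock treatment, and its difference of 1.26 was 0.36 without Urso replicate 3. CETP, the cholesteryl ester transfer protein, was the 1 member at an unadjusted p under 0.05 and was measured lower (-0.56, Urso 6.4, 6.25 and 6.67, Mock 7, 6.94 and 7.06). In glucose metabolism 10 of 20 were higher (median difference 0 when rounded). The liver phosphofructokinase PFKL read 13.74, 13.56 and 13.72 on the Urso arrays and 13.19, 13.35 and 13.23 on the Mock arrays (0.42, adjusted p 0.925), where its dimmer second probe differed by 0.06. The liver glycogen synthase GYS2 differed by -0.63 and the glucose carrier SLC2A2 by 1.05.

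Drug metabolism genes were lower in 8 of 11 (median -0.15, and -0.08 without Urso replicate 1), with 0 at an unadjusted p under 0.05. CYP3A5 and CYP2C8 were lowest on Urso replicate 1, at 4.85, 6.34 and 6.9 for CYP3A5 on the Urso arrays and 6.5, 7.31 and 7.49 on the Mock arrays. The aryl hydrocarbon receptor list had 4 of 8 higher (median -0.05), and 2 of 8 without Urso replicate 1 (median -0.2). ALDH3A1, an aldehyde dehydrogenase of that response, read 6.83, 6.63 and 6.58 with ursodeoxycholic acid, against 5.8, 5.48 and 6 with mock treatment, and was measured 1.89-fold higher (0.92, adjusted p 0.8) while CYP1A2 was measured lower. TIPARP, another target of that receptor, differed by -0.66, and by -0.32 without Urso replicate 1. ARNT, the partner of that receptor, differed by -0.26, and by 0.07 without Urso replicate 2. The heme oxygenase HMOX1, of the NRF2 list (12 of 18 higher, median 0.12, and 0.06 without Urso replicate 1), was measured 2-fold lower at 4.2, 5.21 and 4.6 on the Urso arrays and 5.14, 6.2 and 5.67 on the Mock arrays. KEAP1, the inhibitor of NRF2, differed by -0.48 and the glutathione synthetase GSS by 0.57.

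Endoplasmic reticulum stress genes were higher in 13 of 23 (median 0.09 with and 0.09 without Urso replicate 1), with asparagine synthetase ASNS at 0.48. The chaperone HSPA5 differed by 0.78, and by 0.38 without Mock replicate 2 and 0.5 without Urso replicate 1. EDEM1, of protein degradation, was the 1 member at an unadjusted p under 0.05 (-0.84). Apoptosis genes were higher in 12 of 26 (median -0.06, and -0.08 without Urso replicate 1), and BID, a proapoptotic BCL2 relative, differed by -2.69 with arrays spread from 1.46 to 4.59 with ursodeoxycholic acid and from 4.4 to 7.9 with mock treatment. Targets of p53 were higher in 9 of 15 (median 0.05), but in 7 of 15 without Urso replicate 1 (median -0.01), with CDKN1A at 0.15 and BAX at 0.15. Glucocorticoid targets were higher in 5 of 14 (median -0.04), and in 7 of 14 without Urso replicate 1 (median -0.06). CEBPD, a transcription factor of that list, read 8.37, 8.3 and 7.58 on the Urso arrays, against 7.22, 7.47 and 7.08 on the Mock arrays (0.83, SE 0.25, adjusted p 0.821), and all 3 Urso arrays were higher. That was so in 1 of the 14, beside 5.31% of all genes. Heat shock genes were higher in 6 of 10 (median 0.05, and 0.12 without Urso replicate 1). Inflammation genes were higher in 12 of 17 (median 0.12, and 0.02 without Urso replicate 1), with the signalling inhibitor SOCS3 at 0.48 (Urso 9.36, 9.14 and 9.48, Mock 9.14, 8.71 and 8.69) and TNFAIP3, an inhibitor of NF-kB, at 0.54. CXCL8, of the same list, was measured lower (-1.1, and -0.28 without Urso replicate 1). Interferon-stimulated genes were higher in 12 of 17 (median 0.05), and in 9 of 17 without Urso replicate 1 (median 0.02), with IRF1 at 0.36. MX1, of the same list, was measured lower (-0.91, and -0.31 without Urso replicate 1). No member of these lists passed.

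In the lists of growth and protein synthesis genes most members were measured lower, none past the threshold. Of 21 immediate early genes 14 were lower (median -0.14, and -0.17 without Urso replicate 1). In 4 of the 21 the 3 Urso arrays lay below all Mock arrays, as they did in 4.21% of all genes. FOSL1, a subunit of the AP-1 factor, read 4.85, 6.42 and 6.37 with ursodeoxycholic acid, against 6.7, 6.74 and 7.39 with mock treatment, and FOS itself differed by -0.81 (Urso 7.12, 6.25 and 6.68, Mock 7.46, 7.24 and 7.79). ZFP36, of the same list, was measured higher (1.16, and 0.48 without Mock replicate 3). Replication genes were lower in 17 of 29 (median -0.12, and -0.14 without Urso replicate 1). RRM2, of ribonucleotide reductase, differed by -1.23 on the probe used and by 0.02 on its dimmer probe. Mitotic genes were lower in 13 of 19 (median -0.1 with and without Urso replicate 1), with MKI67, the marker of cycling cells, at 5.66, 5.48 and 7.81 on the Urso arrays and 7.46, 7.33 and 8.47 on the Mock arrays, and the survivin gene BIRC5 higher by 0.35. Urso replicate 3 was the highest for MKI67 and overlapped Mock. Cytosolic ribosomal proteins were lower in 20 of 23 (median -0.18, the same without Urso replicate 1), and in 0 of them did the Urso arrays lie wholly below the Mock arrays, beside 4.21% of all genes. RPS16 had 6.03, 7.95 and 6.22 on the Urso arrays and 7.53, 7.31 and 7.26 on the Mock arrays. Such genes have many near-identical pseudogenes, so what their probes read is uncertain.

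**Figure D4:**
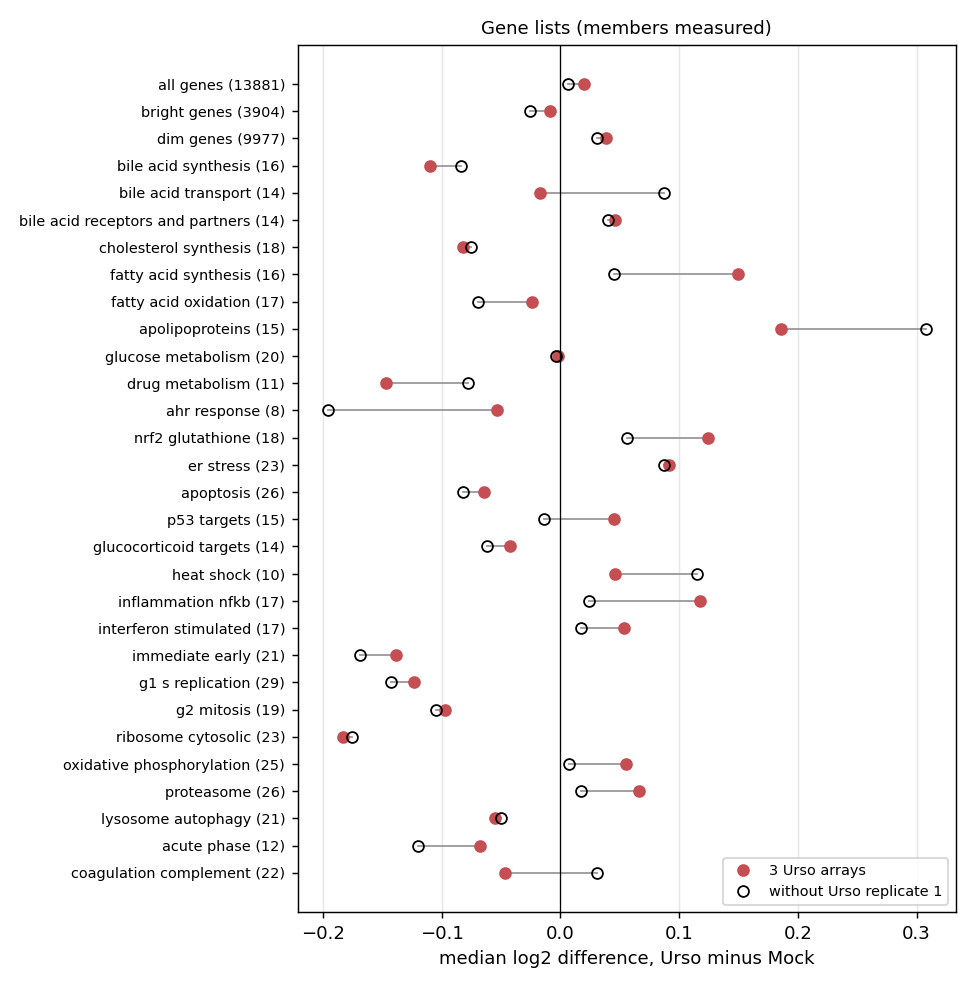
Median log2 difference of Urso minus Mock (x axis) over the measured members of each gene list (number in brackets), with all 3 Urso arrays (red) and without Urso replicate 1 (open circles), beside all, bright and dim genes. The ribosomal list stays at -0.18 in both, while the apolipoprotein list lies at 0.19 with and 0.31 without that array.

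Oxidative phosphorylation genes were higher in 15 of 25 (median 0.06, and 0.01 without Urso replicate 1). NDUFV1, of complex I, was measured lower at 9.57, 9.15 and 9.83 on the Urso arrays and 10.03, 9.84 and 10.37 on the Mock arrays (-0.56), and NDUFA9, of the same complex, higher at 7.47, 6.09 and 5.77 on the Urso arrays and 4.82, 5.18 and 5.45 on the Mock arrays. Without Urso replicate 1 the difference of NDUFA9 was 0.78 in place of 1.29. Proteasome genes were higher in 18 of 26 (median 0.07), and in 14 of 26 without Urso replicate 1 (median 0.02). The Urso arrays lay wholly above Mock in 0 of the 26 and wholly below in 3, beside 5.31% and 4.21% of all genes. PSMD14, a deubiquitinase of the lid, read 9.11, 9.14 and 8.32 with ursodeoxycholic acid, against 9.87, 9.54 and 9.94 with mock treatment (-0.93, SE 0.3, adjusted p 0.83), every Urso array being lower. Lysosome and autophagy genes were higher in 10 of 21 (median -0.05 with and without Urso replicate 1), with the cholesterol-binding protein NPC2 at 0.52.

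Secreted liver proteins gave no gene past the threshold. Coagulation and complement genes were lower in 12 of 22 (median -0.05, and 0.03 without Urso replicate 1). Factor XII, F12, read 4.9, 6.15 and 5.65 on the Urso arrays, against 7.04, 6.57 and 6.83 on the Mock arrays (-1.25, adjusted p 0.687), and factor X, F10, 4.45, 5.75 and 7.13 on the Urso arrays, against 7.55, 7.41 and 7.67 on the Mock arrays. Both had all Urso arrays lower, with Urso replicate 1 the lowest. The Urso arrays lay wholly below Mock in 2 of the 22 and wholly above in 1, beside 4.21% and 5.31% of all genes. F13B, a subunit of factor XIII, was measured higher by 0.96. Acute phase genes were lower in 7 of 12 (median -0.07, and -0.12 without Urso replicate 1), with fibrinogen chain FGB at -0.87. Hepatocyte markers were lower in 14 of 21 (median -0.15, and -0.12 without Urso replicate 1), with transferrin TF at -0.72 and the urea cycle enzyme CPS1 at 1.41.

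Summed linear intensities of the 19 neuroblast markers ran from 12963 to 18096 on the Urso arrays and from 13330 to 14675 on the Mock arrays. Within that list STMN2, a microtubule regulator of neurons, read 11.13, 11.38 and 11.88 with ursodeoxycholic acid, against 9.66, 10.86 and 11.17 with mock treatment (0.9), while SCG2 and the neurofilament NEFM (-0.65) were lower. Hepatocyte marker sums ran from 1805 to 2313 on the Urso arrays and from 2148 to 2213 on the Mock arrays. Those of 8 cholangiocyte and epithelial markers ran from 838 to 928 on the Urso arrays and from 974 to 1199 on the Mock arrays. These sums did not overlap, as was so in 9.52% of all single genes. All 8 markers were dim, the brightest at 7.59, so their values could not be told from background. CFTR, the chloride channel of that list, differed by -2.5, with Urso replicate 3 at 2.71. Mesenchymal sums, dominated by S100A6 and VIM, ran from 94442 to 112421 on the Urso arrays and from 94661 to 124403 on the Mock arrays. The part of any marker in the results above was not tested.

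Against silymarin the comparison of ursodeoxycholic acid shares no array with Mock. It called 4 of 13881 genes at an adjusted p under 0.05 (0.0288%), while 1116 genes (8.04%) had an unadjusted p under 0.05. DCPS, the scavenger enzyme of mRNA caps, read 11.43, 11.32 and 11.4 on the Urso arrays, against 8.79, 8.81 and 7.65 on the Sil arrays and 11.71, 11.24 and 10.8 on the Mock arrays. It was 7.83-fold higher with ursodeoxycholic acid than with silymarin (2.97, SE 0.33, adjusted p 0.0381), and the Urso and Mock arrays overlapped. MIEN1 was 2.54-fold lower with ursodeoxycholic acid than with silymarin (-1.34, SE 0.18, adjusted p 0.0475), with Sil arrays at 12.06, 12.14 and 12.03. CLCN2 was 2.56-fold lower (-1.36, SE 0.18, adjusted p 0.0475), with Sil arrays at 11.43, 11.41 and 11.53. SLC22A11 was 7.58-fold lower (-2.92, SE 0.37, adjusted p 0.0475), with Sil arrays at 4.66, 5.15 and 5. In each of the 4 genes the 3 Urso arrays lay beyond the 3 Sil arrays. The choice by p favours such genes, so this is no further evidence, and the share over all genes was not counted. The count of genes called was 0 without Urso replicate 1 and also without Urso replicate 2, Mock replicate 2 or any 1 of the Gly and Sil arrays. It was 2 (DCPS and SLC22A11) without Mock replicate 1 or Mock replicate 3, and 28 without Urso replicate 3. On bright genes alone 21 genes were called (0.538%), 6 to 27 with single Urso or Mock arrays left out. The Mock and Gly arrays enter this comparison through the shared estimate of the spread.

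Against glycyrrhizin 0 genes were called (0%), with 649 (4.68%) at an unadjusted p under 0.05. On bright genes alone 1 gene was called (0.0256%), the adhesion molecule NCAM1, named here after its values were seen, which read 10.5, 10.24 and 10.52 on the Urso arrays and 8.9, 9.54 and 8.97 on the Gly arrays (1.29, adjusted p 0.0461). That count was 0 without Urso replicate 1, Urso replicate 2 or any 1 Mock array, and 27 without Urso replicate 3. For MIEN1 the difference of Urso minus Gly was 0.25 (95% interval -0.14 to 0.65) and for CLCN2 it was 0.05 (interval -0.34 to 0.45), with Gly arrays at 10.58, 10.38 and 10.49 for MIEN1 and 10.16, 10.08 and 9.89 for CLCN2. SLC22A11 differed by -2.52 (interval -3.34 to -1.71, adjusted p 0.388), with Gly arrays at 4.85, 4.24 and 4.52. Against the mean of both other agents 0 genes were called (0%), with 822 (5.92%) at an unadjusted p under 0.05, and SLC22A11 came nearest at -2.72 (adjusted p 0.0573). Its Urso arrays were lower than all 9 arrays of the other groups. The bright genes with the smallest p in that comparison were DCPS, NCAM1 and CCDC32 on the higher side, at 1.45, 0.64 and 0.54. On the lower side they were CLCN2 at -0.65, WDR75, a factor of ribosome production, at -0.93, and PHETA2, an endosomal trafficking protein, at -0.7. None of these 6 passed. Taken agent by agent, the differences from Gly and Sil were -0.06 and 2.97 for DCPS and 1.29 and 0.001 for NCAM1. They were 0.26 and 0.82 for CCDC32 and 0.05 and -1.36 for CLCN2. For WDR75 they were -0.55 and -1.3, and for PHETA2 -0.23 and -1.17.

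**Figure D5:**
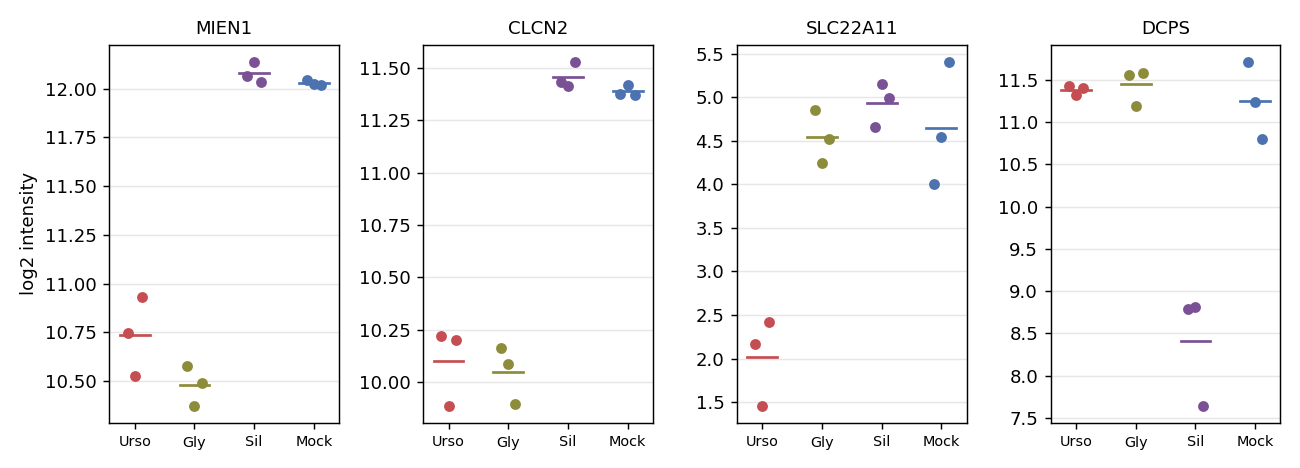
Log2 intensity (y axes, each with its own range) of the 4 genes past the threshold between ursodeoxycholic acid and silymarin, for the 3 arrays (points) and the mean (bar) of the Urso, Gly, Sil and Mock groups. MIEN1 and CLCN2 are low in Urso and Gly, SLC22A11 is low in Urso, and DCPS is low in Sil.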

How the data were processed

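Total RNA from 12 samples was labelled with Cy5 and hybridized to one-colour oligonucleotide arrays, per the labels. The authors deposited linear intensities, 1 for each probe on each array. The submitters' processing notes name limma. Which of its steps were used, the scanner and any background correction were not given in the sources used here. These deposited intensities had been brought to a common distribution: values of the same rank spread by a median of 1.22% across arrays, array medians lay between 85.8 and 86.6, and values ran from 1 to 65221. Of 27561 probes, 15650 named 1 gene in the platform annotation, 0 named several and 11911 none. Symbols of 2355 probes were updated through RefSeq, and 68 with several possible updates were kept. In the 1674 genes with several probes, the brightest exceeded the dimmest by a median of 1.68 log2 units.

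The log2 of each intensity, with no offset, entered limma 3.58.1 (R 4.3.3; lmFit, eBayes). The model held a mean for each of the 4 groups on all 12 arrays, with the prior spread estimated on all probes (8 residual and 2.8 prior degrees of freedom). The brightest probe by mean log2 stood for a gene. Two-sided p-values were adjusted by Benjamini-Hochberg over 13881 genes, with a threshold of 0.05. By chance 694 genes would have an unadjusted p under 0.05. Urso was set against Mock, Gly, Sil and the mean of Gly and Sil. Gene lists (27 of biology and 6 of cell type markers, 539 genes measured) were described by counts and medians with no set test. Tested on simulated arrays for Urso against Mock (13881 genes, 200 changed, 5 runs), the fit found 17% of 2-fold and 64.2% of 4-fold changes (37.8% and 90.4% among bright genes), and 5.92% of its calls were false. The simulated noise was independent between probes, with the same spread on every array. An array standing apart, like Urso replicate 1, was not simulated, so these rates may not hold for the real arrays. No depth applies to arrays, and their number limits the precision.

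The named genes are the 10 bright and 5 dim genes with the smallest p in each direction, genes past the threshold in any comparison, up to 4 members of each list by p (any member of the bile acid and cholesterol synthesis lists), markers, and the 3 bright genes with the smallest p in each direction against the mean of Gly and Sil. Members, lists, rules and tests were chosen with earlier results of these data known. Alternatives were the replicate number as a block, a variance trend, array weights, fits on the compared groups, quantile renormalization, offsets, leaving out dim probes or single arrays, and other ways of joining probes.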

Additional observations from a re-analysis of the deposited data

Results flagged for a closer look

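In 4 genes the effect of ursodeoxycholic acid differed from that of silymarin by the test of the difference itself, in limma over 13881 genes. The log2 difference of Urso minus Sil was 2.97 for DCPS (adjusted p = 0.0381, higher on 3 of 3 arrays). It was -1.36 for CLCN2, -1.34 for MIEN1 and -2.92 for SLC22A11 (each adjusted p = 0.0475, each lower on 3 of 3 arrays). The choice by p favours genes whose arrays all lie on one side, so the array counts add no evidence. Against Mock, ursodeoxycholic acid differed by 0.13 for DCPS, -1.29 for CLCN2, -1.29 for MIEN1 and -2.64 for SLC22A11. The silymarin arrays differed from Mock by -2.84 for DCPS, 0.07 for CLCN2, 0.05 for MIEN1 and 0.29 for SLC22A11. SLC22A11 is dim in every group, and its detection was not tested.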

How the results depend on the processing

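The count of genes past the threshold in Urso against Mock was 0. It was 6 with a variance trend (MIEN1, CLCN2, SYNE2, CYP1A2, OAF, GINS4), 6 with an offset of 50 and 2 without the dimmer 50% of probes. Leaving out single arrays gave 0 to 2 (KLHL40 and FREM1 without Urso replicate 3, FREM1 chosen after its values were seen), and the variance trend without Urso replicate 1, chosen after seeing the data, gave 4. Among bright genes these counts were 5, 4 and 2, with 0 on leaving out any single array and 4 with the trend without Urso replicate 1, against 5 when bright genes were fitted alone. That last count was 2 to 25 with single arrays left out, 25 without Urso replicate 3. Among listed genes the trend and the offset of 50 each called 2 (CYP1A2 and GINS4). The 374 bright genes without overlap became 614 to 1038 with 1 array fewer, as fewer arrays make overlap rarer. Against the mean of Gly and Sil the count was 2 with array weights, 1 on the compared groups, 1 with an offset of 50 and 0 to 42 with single arrays left out (42 without Urso replicate 3). Against Sil, in settings added after seeing the data, the 4 became 16 with the trend, 10 with an offset of 50, 7 with the spread estimated on the genes' probes alone, 0 on the compared groups and 0 to 28 with single arrays left out. Against Gly it was 0 in the 24 settings that adjusted over more than the bright genes. On bright genes alone the counts were 1 against Gly (0 to 27 with single Urso or Mock arrays left out), 21 against Sil (6 to 27) and 0 against the mean of Gly and Sil (0 to 41), each highest without Urso replicate 3. With the replicate number as a block the counts were 0 against Mock and 0 against Sil. Same-numbered Urso and Mock arrays deviated together with r of -0.058, 0.042 and 0.065. For arrays with different numbers r ran from -0.104 to 0.0575. These few values across genes cannot settle whether the numbers pair the arrays. Urso against Mock had no call to lose, and of 2263 recomputed differences of 125 named genes 30 reversed, in 12 genes. Of 98 recomputed Urso minus Sil differences of the 4 called genes, 52 were no longer past the threshold and 0 reversed. With single arrays left out the Urso minus Mock differences that turned sign ran from -0.0384 to 0.127 for ABCB11, -0.36 to 0.143 for ABCC3, -0.417 to 0.838 for ABCC4, -0.544 to 0.0733 for ARNT, -0.0658 to 0.0993 for CYP51A1, -0.368 to 0.323 for CYP7A1, -0.0921 to 0.362 for DCPS, -0.22 to 0.0665 for MVD, -0.0624 to 0.0551 for MVK, -0.201 to 0.0716 for PHETA2 and -0.165 to 0.118 for SREBF2. The variance trend without Urso replicate 1 gave -0.0384 for ABCB11, 0.323 for CYP7A1, -0.0341 for MVK and 0.0716 for PHETA2. Array weights gave 0.0481 for CYP7A1, -0.0383 for MVK and 0.0555 for SREBF2, and the mean of a gene's probes gave -0.0579 for CYP51A1 and -0.0412 for RPL10. The cause was not tested. The median unadjusted 95% interval reached 1.43-fold to either side in bright genes and 1.82-fold in dim genes, which is no limit of detection. On simulated arrays the fit found 37.8% of 2-fold changes among bright genes and 17% over all genes. With 3 arrays a group and no detection calls, differences of 2-fold could thus be missed.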

Other observations

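The 11911 probes without a gene symbol were fitted with the others. In Urso against Mock, 699 of them had an unadjusted p under 0.05, and 0 of all 27561 probes passed an adjustment over all probes, with a lowest adjusted p of 0.0867 in limma. On bright genes, Urso replicate 2 correlated with Mock replicates 1, 2 and 3 at r = 0.971, 0.977 and 0.961, and with Urso replicates 1 and 3 at 0.955 and 0.968. Urso replicate 1 correlated with Urso replicate 3 at 0.939, the lowest of these pairs. These values are across genes, which are not independent replicates.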
